A study of Mus musculus with 2 samples.

Results

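Fc receptors bind the constant part of antibodies and tell immune cells that an antibody has found its target. The 6 genes described here are Fcgr2b, Fcmr, Fcrl1, Fcrla, Fcer1g and Fcgr3, which were taken by symbol as a set of Fc receptors and Fc receptor-like genes. All 6 were listed in both count tables, out of 30457 genes in either table. Their levels are given per cell and per cell class as CPM, the reads of a gene scaled to 1000000 reads of the same cell or class.

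Receptors for IgG come in activating and inhibitory forms. Fcgr3 (CD16) is an activating low-affinity IgG receptor that signals through the common γ chain encoded by Fcer1g, a small membrane adaptor with an ITAM, the tyrosine motif that recruits Syk-family kinases. Fcgr2b (CD32B) carries the opposing ITIM, which recruits phosphatases, and is known as the IgG Fc receptor of B cells, where it dampens signalling from the antigen receptor. Fcmr is the receptor for IgM, Fcrl1 is a surface protein of B cells with ITAM-like motifs, and Fcrla is an intracellular relative found in the endoplasmic reticulum of B cells. In the spleen these genes are known for their split between B cells and the innate NK and myeloid cells.

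The data are 2 single-cell libraries of mouse spleen cells, made on the BD Rhapsody system, where each cell shares a nanowell with a bead carrying barcoded primers. Both came from the same pool of cells from 3 spleens of female C57BL/6J mice with a subcutaneous tumour of Lewis lung carcinoma, a transplantable mouse lung cancer line. The mice were 10 weeks old when injected, were given 200 μg of antibody against CD4 on days 5 and 9, and were sampled on day 12, and the cells were frozen, thawed and loaded as 2000 cells on 1 cartridge. Beads from that cartridge were split between TAS-Seq, which tails cDNA with terminal transferase and a chain terminator, and BD WTA, the kit maker's whole-transcriptome protocol. Each method gave 1 library, every animal carried the tumour and received the antibody, and the animals were pooled, so no difference between mice, treatments or repeated libraries could be measured and no test was possible. Intervals below are exact 95% intervals (Poisson for reads, Clopper-Pearson for shares of cells) and cover counting error only. The counts are amplified reads without molecular identifiers, so several reads can come from 1 molecule. Intervals on reads can therefore be narrower than the error of counting molecules.

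After filtering, 732 TAS-Seq cells and 708 BD WTA cells remained, with medians of 46557 and 38426 reads, and the libraries shared 0 barcodes. Cells were placed in classes by fixed markers that include none of the 6 genes. The B class held 411 TAS-Seq and 366 BD WTA cells, the T class 273 and 283, the NK class 19 and 24, and the myeloid class 20 and 23. A further 3 and 1 cells were plasmacytoid dendritic cell-like (pDC-like), and 6 and 11 cells stayed without a class. The NK and myeloid values therefore rest on few cells. In B cells a median of 6 and 5 of the 6 B-cell markers was on, and in NK cells a median of 5 and 4.5 of the 6 NK markers. NK cells also held T-cell marker RNA, with summed T-marker levels of 715 CPM in TAS-Seq and 1192 CPM in BD WTA, and its part in the NK values was not tested. Summed levels of 19 myeloid markers in NK cells were 1038 and 719 CPM, and those of 6 B-cell markers in myeloid cells were 190 and 50.6 CPM. Of 4 erythroid markers the sums were 315 and 527 CPM in NK and 73.1 and 351 CPM in myeloid cells, and of 4 plasma-cell markers 111 to 274 CPM, whereas all 4 platelet markers were at 0 reads in both classes. Their part in the values was not tested.

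Of the 6 genes, 5 lie on chromosome 1 and Fcrl1 lies on chromosome 3 (GENCODE annotation of GRCm38). Fcmr is at chr1:130865669-130880791 on the plus strand, and Fcrl1 is at chr3:87376387-87402934, also on the plus strand. The other 4 are within 317 kb of each other on the minus strand of chromosome 1, in the order Fcrla (chr1:170917576-170927583), Fcgr2b (chr1:170958617-170976547), Fcgr3 (chr1:171051174-171064935) and Fcer1g (chr1:171229572-171234365). That stretch holds 20 annotated genes, of which 12 are protein coding. One of them is Fcgr4, another activating IgG receptor, between Fcgr2b and Fcgr3.

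Fcgr2b and Fcgr3 share sequence, which can bear on the values given for this pair. Of the 1733 different 31-base words in the annotated Fcgr3 transcripts, 233 (13.4%) also occur in Fcgr2b transcripts, whereas Fcmr, Fcrl1, Fcrla and Fcer1g share 0 such words with any other gene. Of the 5609 words of Fcgr2b, 324 occur in another gene, 84 genes in all, and 233 of them occur in Fcgr3. The longest identical coding stretch is 129 bases, at coding bases 278 to 406 of Fcgr2b and 263 to 391 of Fcgr3, and is printed in lower case because it shows where a read could be placed on either gene.
Fcgr2b and Fcgr3, shared coding stretch: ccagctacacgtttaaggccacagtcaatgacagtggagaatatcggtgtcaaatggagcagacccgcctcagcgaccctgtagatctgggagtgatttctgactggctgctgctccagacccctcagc
Reads that lie wholly within this stretch cannot be told apart by sequence, whereas longer reads that run past it can. The counts of the pair can therefore carry an uncertainty that the other 4 genes do not. How many reads fell in it is not given by gene-level counts. B cells held Fcgr2b at 160 and 178 CPM (TAS-Seq, BD WTA) and Fcgr3 at 0.343 and 0.990 CPM.

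The promoters of 3 genes are printed to set B-lineage genes beside the innate adaptor: Fcrl1 and Fcrla, which had their reads in B cells, and Fcer1g, which had them in NK and myeloid cells. Sequences come from the 250 bases upstream of the RefSeq start (GRCm38.p6, read 5′ to 3′ on the gene's strand). Those of Fcrl1 and Fcrla run up to the start, and that of Fcer1g is the 234 bases farthest from it, because the rest of its window lies in an annotated exon. Capitals mark each match to GAGGAA or its complement TTCCTC, the core that PU.1 and related ETS factors are known to bind.
Fcrl1, chr3:87376137-87376386, plus strand: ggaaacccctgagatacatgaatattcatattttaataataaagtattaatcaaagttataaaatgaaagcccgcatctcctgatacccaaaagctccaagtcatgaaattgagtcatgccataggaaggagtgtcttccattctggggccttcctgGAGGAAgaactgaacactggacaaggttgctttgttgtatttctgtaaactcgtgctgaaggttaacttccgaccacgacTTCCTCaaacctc
Fcrla, chr1:170927584-170927833, minus strand: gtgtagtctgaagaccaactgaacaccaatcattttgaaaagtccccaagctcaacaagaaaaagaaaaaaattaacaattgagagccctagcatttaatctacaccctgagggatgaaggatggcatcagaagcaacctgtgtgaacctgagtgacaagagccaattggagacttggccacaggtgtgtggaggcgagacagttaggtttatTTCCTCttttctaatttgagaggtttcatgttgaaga
Fcer1g, chr1:171234366-171234599, minus strand: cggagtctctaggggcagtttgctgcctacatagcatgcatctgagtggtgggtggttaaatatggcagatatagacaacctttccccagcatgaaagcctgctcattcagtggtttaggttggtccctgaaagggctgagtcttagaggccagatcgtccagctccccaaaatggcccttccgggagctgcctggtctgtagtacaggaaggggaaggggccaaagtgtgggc
Within 250 bases upstream of a RefSeq start, on either strand, GAGGAA occurred in Fcmr, Fcrl1, Fcrla and Fcgr3 and not in Fcgr2b or Fcer1g. It occurred in 23.3% of 32851 mouse promoter windows of that length. The match nearest the start was at base -36 in Fcmr, -13 in Fcrl1 and -37 in Fcrla. In Fcgr3 it was at -6 or -15, counted from the first or second RefSeq start of that gene. The match in Fcrl1 overlaps one to TTNNGNAA, a C/EBP-type core found in 36.8% of windows and also in those of Fcmr, Fcrla and Fcgr3. The octamer ATTTGCAT was in none of the 6 genes' windows and in 1.60% of all windows, and likewise TGTGGT (RUNX-type, 14%) and AGGTGTGA (T-bet-type, 1.12%). CCCNNGGG (EBF1-type, 11.8%) was in that of Fcgr3, CAGNTG (E-box, 44.8%) in those of Fcmr, Fcrla and Fcer1g, and TATAAA (12.4%) in that of Fcrl1. These matches describe letters and do not show binding. The windows of Fcgr2b and Fcgr3 lie within the annotated genes and that of Fcmr overlaps an annotated exon by more than that of Fcer1g, and these 3 are not printed.

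Fcgr2b, the inhibitory IgG receptor, was read mainly in B cells and in a minority of myeloid cells. Its pooled level in B cells was 160 CPM in TAS-Seq (interval 154 to 165) and 178 CPM in BD WTA (171 to 184). At an equal depth of 20000 reads per cell, a read of Fcgr2b was found in 142 of 397 TAS-Seq B cells (35.8%, interval 31 to 40.7) and in 108 of 334 BD WTA B cells (32.3%, interval 27.3 to 37.6). Without thinning the shares were 42.1% and 32.0%, and with at least 5 reads required they were 22.2% and 21.3%. The median B cell was at 0 CPM in both libraries, and the highest cells reached 2031 and 3306 CPM. Most B cells thus had no read at this depth, and the pooled level came from a minority of cells. T cells, the class expected to hold least of the gene, had a read in 7.55% of cells in TAS-Seq and in 0.760% in BD WTA, at median depths of 52736 and 42087 reads against 42331 and 35819 in B cells.

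Myeloid cells held Fcgr2b at 156 CPM in TAS-Seq (interval 133 to 182) and 65.5 CPM in BD WTA (51.8 to 81.6). In TAS-Seq this was 0.977 of the B-cell level (interval 0.827 to 1.15), and in BD WTA 0.369 of it (0.291 to 0.461). The reads were in 8 of 20 and 5 of 23 cells. NK cells had 47 reads (42.9 CPM) in TAS-Seq and 3 reads (3.14 CPM) in BD WTA. In TAS-Seq 46 of those 47 reads were in 5 cells, which had 4 to 6 NK markers, 0 to 3 myeloid markers and 0 B-cell markers on. The cell with most of them (19 reads) had 6 NK and 3 myeloid markers on.

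Fcmr, the IgM receptor, was read in most B cells. Pooled B-cell levels were 936 CPM in TAS-Seq (interval 923 to 950) and 1056 CPM in BD WTA (1040 to 1072). A read was found in 341 of 397 B cells in TAS-Seq (85.9%, interval 82.1 to 89.2) and in 258 of 334 in BD WTA (77.2%, interval 72.4 to 81.6), and requiring 5 reads left 72.5% and 72.2%. The lower and upper quartiles over cells were 176 and 1497 CPM in TAS-Seq and 35.2 and 1682 CPM in BD WTA, around medians of 737 and 808 CPM. Outside B cells Fcmr was scarce. NK and myeloid cells had 13 and 26 reads in TAS-Seq and 0 in BD WTA, where B cells were at least 336-fold higher than NK cells and at least 425-fold higher than myeloid cells when the class at 0 was set to 3 reads. T cells had a read in 14.7% of cells in TAS-Seq and 0.380% in BD WTA.

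Fcrl1, the B-cell surface protein with ITAM-like motifs, was read in a larger share of the B cells of the TAS-Seq library. Its pooled level was 264 CPM in TAS-Seq B cells (interval 257 to 271) and 187 CPM in BD WTA B cells (180 to 194). The share of B cells with a read was 55.2% in TAS-Seq (219 of 397, interval 50.1 to 60.1) and 36.8% in BD WTA (123 of 334, interval 31.6 to 42.2). Without thinning the shares were 58.4% and 38.5%, and at 5 reads or more 35.8% and 21%. These intervals run over the cells of 1 library each and do not test the methods. T cells had a read in 5.28% and 0.380% of cells.

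Fcrla, the intracellular relative, had its higher pooled level in the BD WTA library. B cells held 291 CPM in TAS-Seq (interval 284 to 299) and 479 CPM in BD WTA (468 to 489). A read was found in 222 of 397 cells (55.9%, interval 50.9 to 60.9) and in 203 of 334 cells (60.8%, interval 55.3 to 66.0). Among cells with any read before thinning, the median was 334 CPM in TAS-Seq and 615 CPM in BD WTA. T cells had a read in 6.79% of TAS-Seq cells and in 0 of 263 BD WTA cells, where the exact interval reaches 1.39%. Outside the B and T classes, Fcrla was at 606, 0 and 1093 CPM in the 3 TAS-Seq pDC-like cells and at 0 in the single BD WTA cell of that kind. BD WTA myeloid cells had 39 reads (32.3 CPM), in 2 cells at 213 and 175 CPM, and 2 BD WTA cells without a class reached up to 769 CPM.

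**Figure D1:**
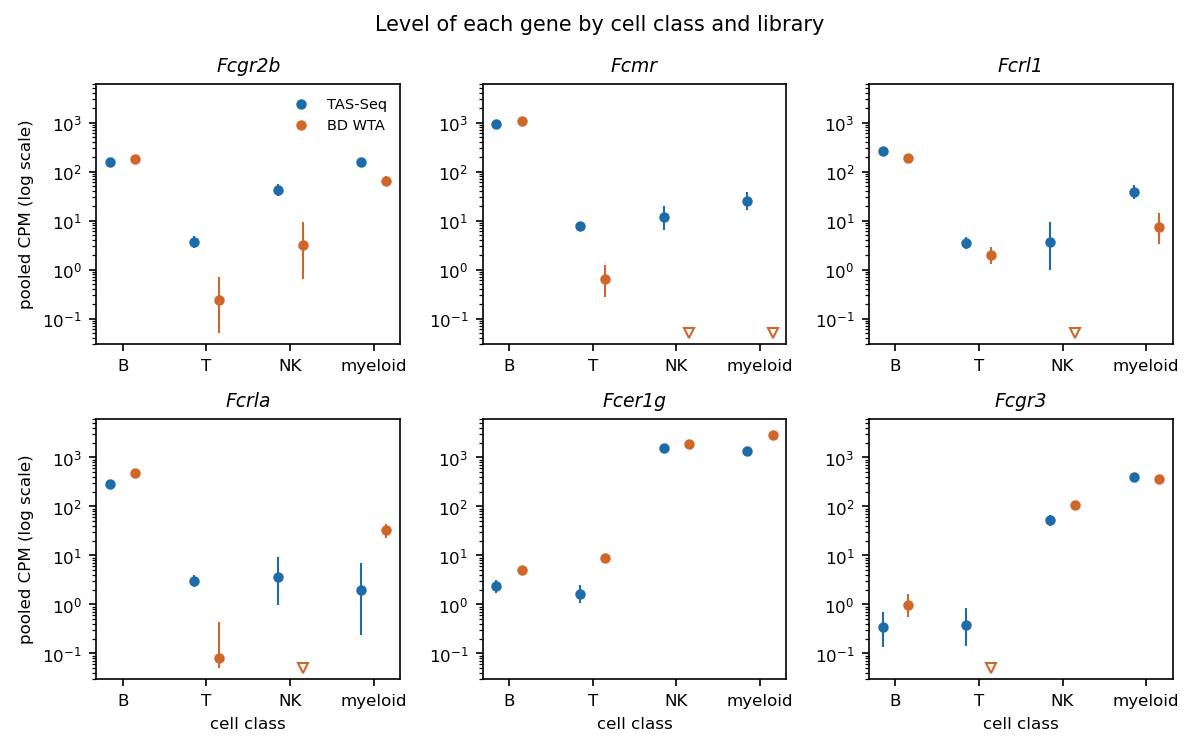
Pooled level of each gene (CPM, log axis) in B, T, NK and myeloid cells of the TAS-Seq and BD WTA libraries, with bars for exact 95% Poisson intervals and open triangles, set near the bottom of the axis, where a class had no reads. The lower bound for Fcrla in BD WTA T cells (0.00203 CPM) lies below the end of its drawn bar. Fcgr2b, Fcmr, Fcrl1 and Fcrla lie between 160 and 1056 CPM in B cells, and Fcer1g lies between 1344 and 2899 CPM in NK and myeloid cells.

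**Figure D2:**
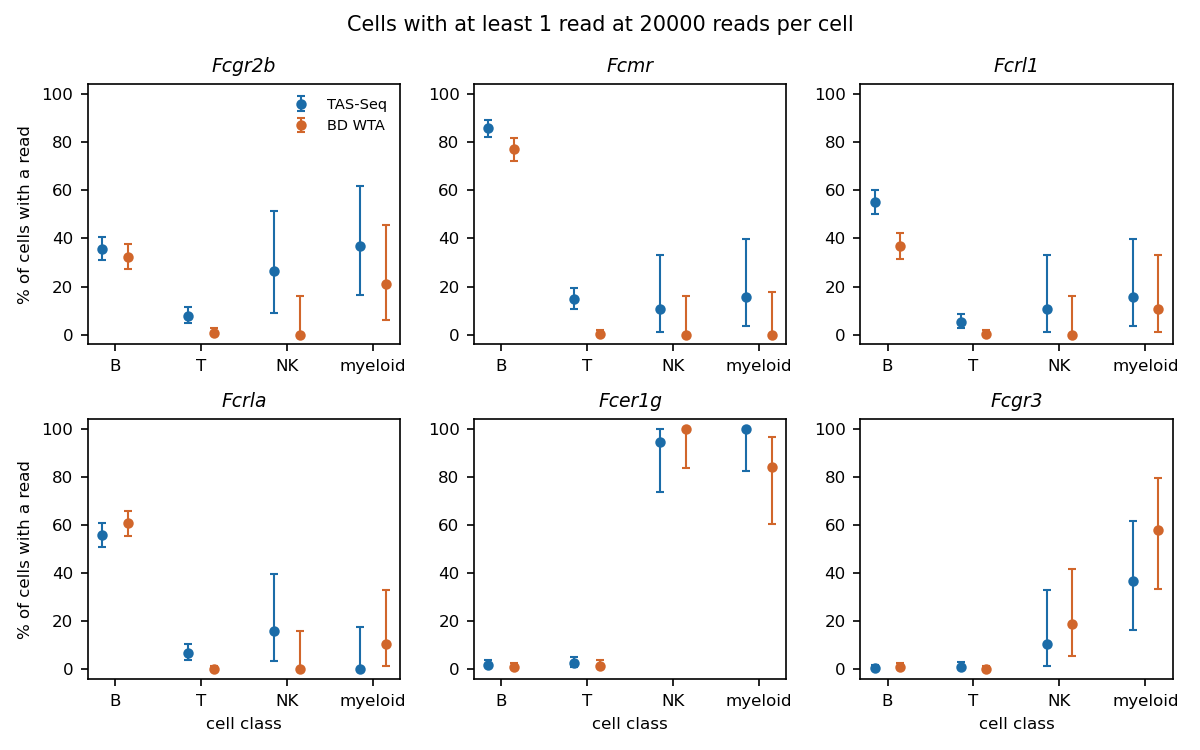
Share of cells (percent) with at least 1 read of each gene at 20000 reads per cell, by class and library, with exact 95% binomial intervals. Fcmr was read in 85.9% and 77.2% of B cells, and the shares in T cells were between 5.28% and 14.7% for the B-lineage genes in TAS-Seq and at most 0.760% in BD WTA.

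Fcer1g, the shared signalling chain, separated NK and myeloid cells from B and T cells in both libraries. NK cells held 1596 CPM in TAS-Seq (interval 1522 to 1673) and 1913 CPM in BD WTA (1826.5 to 2003). A read was found in 18 of 19 and 21 of 21 NK cells at 20000 reads. Single NK cells ranged from 0 to 4567 CPM in TAS-Seq, with a median of 1498, and from 539.5 to 4272 CPM in BD WTA, with a median of 2031. Only 1 NK cell over both libraries was at 0. Tyrobp, which encodes DAP12, the other ITAM adaptor of NK and myeloid cells, was read together with Fcer1g in 18 of 19 and 20 of 21 NK cells. When NK cells were taken from clusters in place of single-cell marker calls, the shares with a read fell by a wide margin, to 52.9% and 62.9%. That cluster also held 12 TAS-Seq and 11 BD WTA cells called T, of which 1 and 0 had an Fcer1g read.

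Myeloid cells held Fcer1g at 1344 CPM in TAS-Seq (interval 1273 to 1417) and 2899 CPM in BD WTA (2804 to 2997). Cells ranged from 136 to 3243 CPM around a median of 1001 in TAS-Seq, and from 0 to 7272 CPM around a median of 3113 in BD WTA. The spread between cells was therefore wider in BD WTA, where 3 of 23 cells had no read and 16 were above 1000 CPM, against 0 and 10 of 20 in TAS-Seq. In B cells the level was 2.35 CPM in TAS-Seq and 4.95 CPM in BD WTA, so NK cells were 679-fold (interval 510 to 924) and 386-fold (309 to 490) higher. Myeloid cells were 571-fold (429 to 779) and 586-fold (469 to 740) above B cells. The B-cell level rested on few cells, with 20 of 48 reads in 1 TAS-Seq cell and 76 of 80 reads in 2 BD WTA cells, of which 1 also had 5 NK markers on. Without them B cells were at 1.39 and 0.251 CPM. NK cells were then 1149-fold (792 to 1734) and 7637-fold (2978 to 28059) higher, and myeloid cells 967-fold (666 to 1461) and 11572-fold (4516 to 42497). Only B cells were left out, by their own Fcer1g reads, which can only raise these ratios. The intervals do not cover that choice.

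Fcgr3, the activating receptor that uses this chain, was read in fewer NK and myeloid cells than the chain. Myeloid cells held 399 CPM in TAS-Seq (interval 361 to 440) and 362 CPM in BD WTA (329 to 398), and NK cells 52.9 CPM (40.2 to 68.4) and 108 CPM (88.0 to 131). At 20000 reads per cell, a read was found in 7 of 19 and 11 of 19 myeloid cells (36.8% and 57.9%), and in 2 of 19 and 4 of 21 NK cells (10.5% and 19%). All 7 TAS-Seq myeloid cells with an Fcgr3 read also had one of Fcer1g, as did all 19 myeloid cells of that library at this depth. In BD WTA 9 of 11 did. Both genes were read in 47.4% of the BD WTA myeloid cells, where the product of their shares gives 48.8%. Without the 5 cells with most reads the myeloid level was 91.8 CPM in TAS-Seq and 147 CPM in BD WTA, so a few cells carried most of it. In NK cells all 58 and all 103 reads were in 4 cells of each library, the highest at 488 and 1010 CPM. The pooled NK level is thus that of a few cells. Leaving out cells with reads of 2 or more markers of another class kept 9 of 21 BD WTA NK cells, and 0 of those had a read. With 15 of 19 and 20 of 24 NK cells at 0 a lower level in the rest was not detectable at this depth. B cells had a read of Fcgr3 in 0.504% and 0.898% of cells, and T cells had 6 reads in TAS-Seq and 0 in BD WTA.

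**Figure D3:**
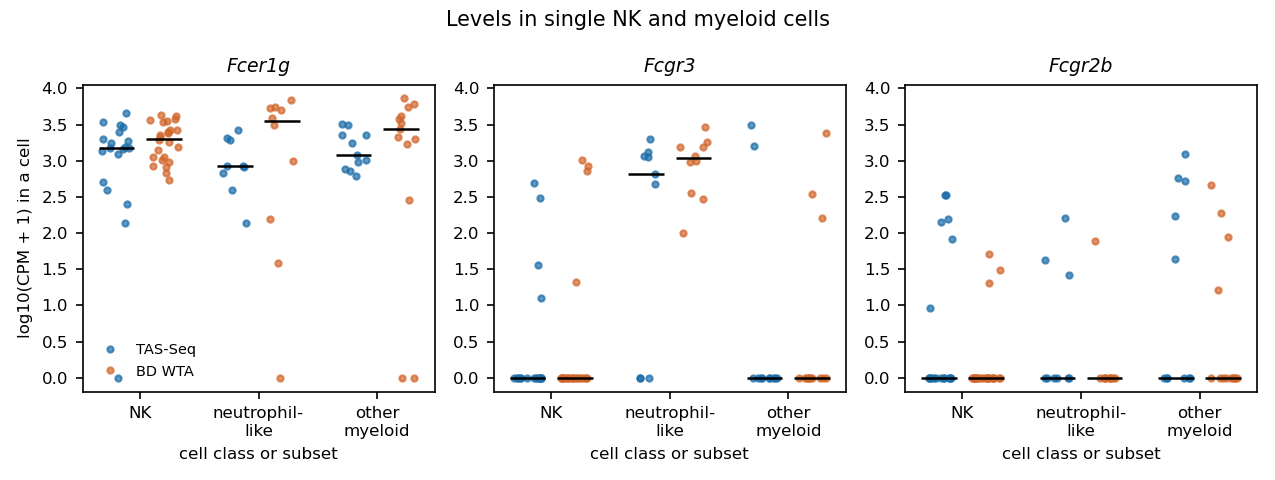
Fcer1g, Fcgr3 and Fcgr2b in single NK, neutrophil-like and other myeloid cells (vertical axis log10 of CPM plus 1, 1 point a cell, black bar at the median), by library. Fcer1g is at 0 in 1 of 19 TAS-Seq NK cells and in 1 of 10 neutrophil-like and 2 of 13 other myeloid BD WTA cells, whereas Fcgr3 is at 0 in 15 of 19 and 20 of 24 NK cells.

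The myeloid class could be split by neutrophil markers, none of which is an Fc receptor gene. Neutrophil-like cells (9 in TAS-Seq, 10 in BD WTA) had at least 3 of the 5 markers on, and the other myeloid cells numbered 11 and 13. Fcgr3 was read in 6 of 9 and 10 of 10 neutrophil-like cells and in 2 of 11 and 3 of 13 other myeloid cells. In the 9 TAS-Seq neutrophil-like cells Fcgr3 ran from 0 to 2011 CPM with a median of 659 CPM, and in the 10 BD WTA cells from 98.3 to 2934 CPM with a median of 1091 CPM. The other myeloid cells had a median of 0 CPM in both libraries but reached 3149 and 2415 CPM, so the ranges overlapped. On pooled reads Fcgr3 was higher in neutrophil-like cells by 2.16 on the log2 scale in TAS-Seq (interval 1.85 to 2.47) and by 3.76 in BD WTA (3.39 to 4.15). The size depended on the weight of a cell, since means over cells gave 0.81 and 2.38. Moving the requirement to 2 markers gave 3.24 and 5.04.

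Fcgr2b had the opposite order in these cells. It was read in 3 of 9 and 1 of 10 neutrophil-like cells and in 5 of 11 and 4 of 13 other myeloid cells. These counts, like those of Fcgr3, are without thinning, and neutrophil-like cells were shallower. Their median depths were 39316 reads against 45993 in TAS-Seq and 31056 against 65574 in BD WTA. The part of depth was not tested. The highest neutrophil-like cells had 162 and 77.3 CPM, and the highest other myeloid cells 1241 and 460 CPM. Pooled levels fell by 2.89 on the log2 scale from other myeloid to neutrophil-like cells in TAS-Seq (interval -3.98 to -1.97) and by 3.89 in BD WTA (-6.96 to -1.99). The size rests on few reads, since in BD WTA the neutrophil-like reads were all in the 1 cell at 77.3 CPM, which had 25870 reads of all genes. Among the other myeloid cells, those with at least 2 dendritic-cell markers on (6 and 5 cells) had 0 reads of Fcgr3 in every cell. In the same cells Fcgr2b was at 579, 525, 43.5, 0, 0 and 0 CPM in TAS-Seq and at 460, 186, 0, 0 and 0 CPM in BD WTA. Over the whole myeloid class at 20000 reads, both receptors were read in 3 of 19 cells (15.8%) in TAS-Seq and 1 of 19 (5.26%) in BD WTA, where the products of their shares give 13.6% and 12.2%. Fcer1g did not follow either pattern, with pooled differences between neutrophil-like and other myeloid cells of -0.18 in TAS-Seq and 0.34 in BD WTA.

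B cells were split by 9 marginal zone markers into 110 and 83 marginal zone-like cells, with at least 3 on, and 301 and 283 other B cells. Marginal zone B cells sit at the border of the splenic white pulp, respond early to blood-borne antigen and carry much IgM. Fcmr was lower in the marginal zone-like cells, at 674 against 1096 CPM in TAS-Seq and 683 against 1265 CPM in BD WTA. This is a fall by 0.70 on the log2 scale in TAS-Seq (interval -0.75 to -0.65) and by 0.89 in BD WTA (-0.94 to -0.84). The shares of cells with a read were close, at 81.5% and 87.5% in TAS-Seq and 75.6% and 77.8% in BD WTA, so the levels per cell differed more than the shares. The medians over cells were 422 against 860 CPM and 632 against 919 CPM.

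Fcgr2b was read in more of the marginal zone-like cells, 46.3% against 31.8% in TAS-Seq (intervals 36.7 to 56.2 and 26.5 to 37.5) and 58.5% against 23.8% in BD WTA (47.1 to 69.3 and 18.7 to 29.6). Its pooled level was 158 against 161 CPM in TAS-Seq, a difference within counting error, and 242 against 142 CPM in BD WTA. Fcrla was also read in more of them, 69.4% against 50.9% and 73.2% against 56.7%, although its pooled level was lower by 0.14 and 0.25 on the log2 scale. Marginal zone-like cells had more reads before thinning, with medians of 62515 against 39400 and 58490 against 32524, and the shares are at 20000 reads in every cell. Fcrl1 differed by -0.06 and -0.44, and the BD WTA value changed sign to 0.10 when 2 markers were required in place of 3. Within the wider family, Fcer2a (CD23, the low-affinity IgE receptor of follicular B cells) was lower in marginal zone-like cells, at 218 against 889 CPM and 218 against 806 CPM. Fcrl5, an Fc receptor-like gene known from marginal zone B cells, was higher, at 81.3 against 15.4 CPM and 77.2 against 11.7 CPM.

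Single B cells carried from 0 to 4 of the B-lineage genes. At 20000 reads, all 4 were read in 42 of 397 B cells in TAS-Seq (10.6%) and 25 of 334 in BD WTA (7.49%), and none in 7 and 18 cells. The most frequent number was 2 genes, in 158 and 135 cells. Pairs were read together about as often as the product of their shares gives. Fcrl1 and Fcrla were both read in 30.7% of TAS-Seq B cells, where the product is 30.8%, and in 21.9% of BD WTA B cells, where it is 22.4%. The pair furthest above its product was Fcgr2b with Fcrla, at 22.4% against 20% in TAS-Seq and 22.2% against 19.7% in BD WTA. These are counts of cells that share 1 library each, and no test was made.

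TAS-Seq and BD WTA were compared within a class, which is the question of the series, on the log2 scale of pooled CPM. In B cells the ratio of TAS-Seq over BD WTA was -0.15 for Fcgr2b (interval -0.23 to -0.08), -0.17 for Fcmr (-0.20 to -0.14), 0.50 for Fcrl1 (0.43 to 0.56) and -0.72 for Fcrla (-0.77 to -0.67). None of these 4 reached 1 in size, which 19.5% of 9837 genes did in B cells. The median over all those genes was 0.15. In NK cells the ratio was -0.26 for Fcer1g (interval -0.36 to -0.17) and -1.03 for Fcgr3 (-1.52 to -0.55). Fcgr3, with its reads in 4 cells a library, was past 1. It was not among the 1919 genes with reads in at least 10 NK cells of a library. Of those genes 31.8% were past 1, so that share is no like background for Fcgr3. Over all filtered cells the ratio of Fcer1g was -1.10, and in myeloid cells it was -1.11. NK cells were 2.60% and 3.39% of the filtered cells, and myeloid cells 2.73% and 3.25%.

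**Figure D4:**
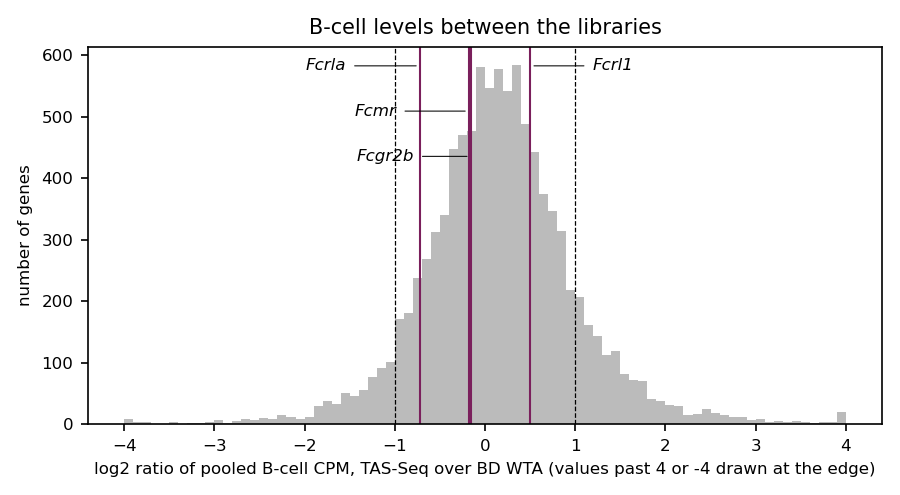
Number of genes (vertical axis) by the log2 of the B-cell level in TAS-Seq divided by that in BD WTA (horizontal axis, pooled CPM), for 9837 genes, with solid lines at the 4 B-lineage genes and dashed lines at -1 and 1. Fcrla lies at -0.72, Fcmr at -0.17, Fcgr2b at -0.15 and Fcrl1 at 0.50, all between the dashed lines and inside the 5th to 95th percentiles of all genes (-1.15 to 1.55).

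Between classes, all 4 B-lineage genes were at least 4-fold higher in B than in T cells in both libraries, where 4.38% of 9056 genes were. They were below the 10 CPM minimum in T cells and entered only through B cells, which bears on this count. Fcer1g and Fcgr3 did not reach the minimum here, so 4 of the 6 members were compared. The B-over-T ratio of Fcmr was 121-fold in TAS-Seq (interval 101.5 to 147) and 1647-fold in BD WTA (836 to 3816). For Fcgr2b it was 43.6-fold (33.6 to 57.7) in TAS-Seq and, on 3 T-cell reads, 739-fold (253 to 3587) in BD WTA. For Fcrla it was 96.5-fold (72.4 to 131) and, on 1 T-cell read, 5974-fold (1072 to 235970). For Fcrl1 it was 76.0-fold (58.1 to 101.3) and 93.3-fold (63.1 to 144), where 1 T cell in each library held 21 of 54 and 23 of 25 reads. Without that cell it was 124-fold (88.0 to 180.0) in TAS-Seq and, on 2 T-cell reads, 1164-fold (322 to 9612) in BD WTA. The cell was picked by its Fcrl1 reads, so leaving it out can only raise the ratio. Fcer1g and Fcgr3 were at least 4-fold higher in NK than in B cells, as were 3.68% of 8972 genes, and in myeloid than in B cells, as were 4.63% of 8926 genes. Both were below the minimum in B cells and entered only through NK or myeloid cells.

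The reads of B-lineage genes in T cells were more numerous in TAS-Seq. As a percentage of the B-cell level, the T-cell level was 2.29 for Fcgr2b, 0.824 for Fcmr, 1.32 for Fcrl1 and 1.04 for Fcrla. In the same T cells 5 B-cell marker genes stood at 0.839 to 1.52% of their B-cell levels, with a median of 1.32%. In BD WTA the genes stood at 0.135, 0.0607, 1.07 and 0.0167%, and the markers at 0.236 to 0.858% with a median of 0.555%. Without the 1 T cell with most of its reads, a choice that can only lower the value, Fcrl1 stood at 0.808% in TAS-Seq and 0.0859% in BD WTA. Most of these reads were spread thinly. In TAS-Seq 183 of 265 T cells had no read of the 4 genes at 20000 reads, 74 had 1 of them, and 264 had none at 5 reads or more. In BD WTA 259 of 263 had none.

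A few cells outside the home class held many reads. In BD WTA 1 T cell had 23 of the 25 Fcrl1 reads of its class (753 CPM), with 6 T-cell markers and 0 B-cell markers on, and without it the T-cell level was 0.161 CPM in place of 2.003. In TAS-Seq 1 T cell had 21 of 54 Fcrl1 reads (301 CPM), with 6 T-cell markers and 1 B-cell marker on. For Fcer1g, 3 BD WTA T cells had 34, 21 and 53 reads (916, 273 and 742 CPM), together 96.4% of the class. They had 5 or 6 T-cell markers, 1 or 2 NK markers and 2 to 5 of the 6 memory-like markers on, and without them the T-cell level was 0.325 CPM in place of 8.97. In B cells of BD WTA, 1 cell with 6 B-cell and 5 NK markers on had 69 of 80 Fcer1g reads, and another had 10 of 16 Fcgr3 reads. None of these cells was called a doublet by Scrublet, and whether they hold RNA of another cell was not tested.

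Within T cells the B-lineage genes were low in every subset. In TAS-Seq Fcmr was at 7.82 CPM in CD8 T cells and 6.97 CPM in CD4 T cells, a log2 difference of 0.17 (interval -0.53 to 0.91). Fcgr2b, which is known from some memory CD8 T cells, was at 2.65 CPM in the 48 memory-like T cells and 3.99 CPM in the other 225, a log2 difference of -0.59 (interval -1.74 to 0.41). Fcgr2b was thus not detectably higher in memory-like T cells at this depth, and BD WTA had 3 reads of it in all T cells. Fcer1g in BD WTA was at 29.3 CPM in 44 memory-like T cells and 3.73 CPM in the rest, on 75 and 37 reads that came almost wholly from the 3 cells above.

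**Figure D5:**
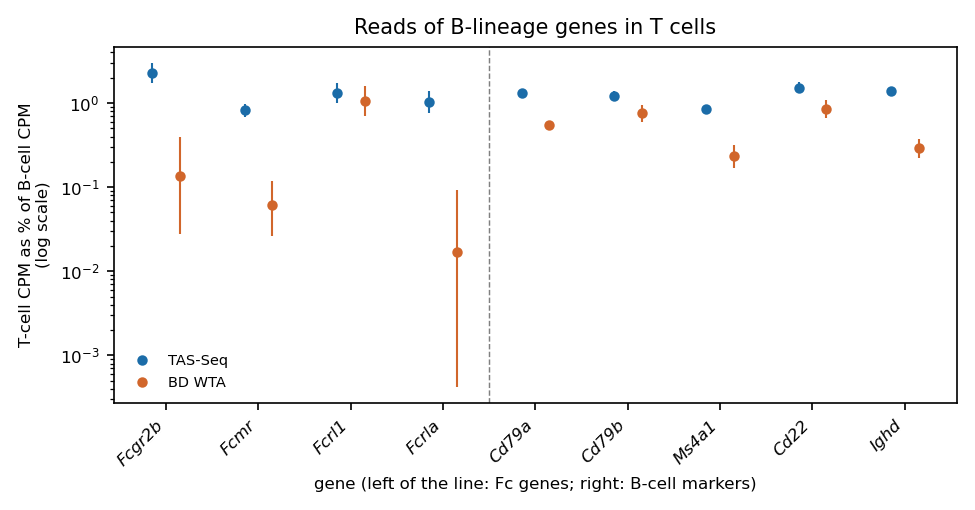
Level in T cells as a percentage of the level in B cells (log axis) for Fcgr2b, Fcmr, Fcrl1 and Fcrla and for 5 B-cell marker genes, with exact 95% Poisson intervals, by library. In TAS-Seq the 4 genes lie at 0.824 to 2.29% and the markers at 0.839 to 1.52%, and in BD WTA the genes spread from 0.0167% to 1.07% for Fcrl1, which has 23 of its 25 reads in 1 cell.

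A list of 13 other Fc receptor and Fc-binding genes was looked up in the same classes. In both libraries, 2 of the 3 that could be tested were at least 4-fold higher in B than in T cells (4.38% of all genes), namely Fcer2a (635 and 595 CPM in B cells) and Fcrl5 (40.3 and 35.2 CPM). For myeloid over B cells (4.63% of all genes) it was 1 of 3, Fcgrt, the neonatal Fc receptor that recycles IgG, at 239 against 20.3 CPM and 71.3 against 9.96 CPM. Its myeloid reads came from 4 and 5 cells. For NK over B cells (3.68% of all genes) it was 0 of 2, again Fcer2a and Fcrl5. These 2 genes entered the comparisons through their B-cell levels, so that count could not show a gene higher in NK cells. Fcgr4 was read in 5 of 20 and 4 of 23 myeloid cells (121 and 60.5 CPM). Fcgr1, the high-affinity IgG receptor, had 111 reads in 3 BD WTA myeloid cells and 0 reads in TAS-Seq myeloid cells, where 3 reads would be 2.96 CPM.

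A list of 19 signalling genes that act downstream of ITAM and ITIM receptors was looked up in the same way. In B over T cells 7 of 19 reached 4-fold in both libraries, against 4.38% of all genes, namely Tyrobp, Syk, Lat2, Plcg2, Lyn, Btk and Blnk. As many went the other way. In T over B cells 7 of 19 did so, against 2.92% of all genes, namely Hcst, Cd247, Zap70, Lat, Lcp2, Plcg1 and Fyn. Syk, the kinase recruited by ITAMs, was at 341 and 400 CPM in B cells and 4.56 and 3.04 CPM in T cells. Blnk, the B-cell adaptor below Syk, was at 260 and 320 CPM against 3.599 and 0.0801 CPM. In NK over B cells 7 of 19 did so, against 3.68% of all genes, namely Tyrobp, Hcst, Cd247, Zap70, Lat, Lcp2 and Fyn. Cd247 encodes the CD3ζ chain and was at 167 and 68.1 CPM in NK cells against 1.32 and 2.60 CPM in B cells. In T cells it was at 193 and 189 CPM. In myeloid over B cells 2 of 15 did so, against 4.63% of all genes, Tyrobp at 2805 and 2007 CPM against 64.1 and 45.8 CPM, and Lcp2 at 192 and 205 CPM against 3.28 and 3.34 CPM. The phosphatases recruited by ITIMs were read in all 4 classes. Ptpn6 (SHP-1) was at 651 and 592 CPM in B cells, and Inpp5d (SHIP-1), the known partner of Fcgr2b, at 147 and 94.1 CPM.

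Genes with a pattern like that of each member were ranked by Pearson's r of log2(CPM + 1) over the 4 classes in 2 libraries, 8 points that share libraries and cells, among 4706 genes. Fcmr was close to Fcer2a (r = 0.99) and to Ighd, the IgD heavy chain (0.99). Fcgr2b, with its second site in myeloid cells, was nearest to Napsa (0.98), Epn1 (0.97) and Cd83 (0.94), all of which were also read in myeloid cells at 65.5 CPM or more. Fcrl1 was nearest to Fam43a (0.99), Swap70 (0.98) and Pdia4 (0.98). Fcrla was nearest to Ffar1 (0.97), Prr5 (0.94) and Gga2 (0.94). The nearest genes to Fcer1g were Rap1gap2, Ly6a2 and Vapb, with r between 0.97 and 0.98, and Fcgr3 was close to Snap23 (0.99) and Lilrb4a (0.98), an inhibitory receptor of myeloid cells. Between members, r was 0.96 for Fcer1g with Fcgr3 and 0.92 for Fcmr with Fcrl1, and it was 0.27 for the neighbouring IgG receptors Fcgr2b and Fcgr3. With so few points such values describe the order of the classes and nothing more.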

How the data were processed

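Both deposited tables hold counts, which the authors made as integer read numbers for each gene in each barcode, neither normalized nor collapsed by molecular identifiers. Per the methods of the study, reads were mapped to sense cDNA and non-coding RNA of GRCm38, and barcodes above the inflection point were kept. The submitters' processing notes name cutadapt 2.10, Bowtie2 2.4.2 and R 3.6.3. Whether a background subtraction was applied to these tables is not given in the sources used here. Mapping to transcripts without molecular identifiers leaves amplification in the values and lets reads fall on near copies, as for Fcgr2b and Fcgr3.

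A cell needed 500 genes or more, with no more than 0.25 of its reads mitochondrial (4 of 736 and 8 of 716 barcodes were removed). The tables held 38656790 and 31608259 reads. A marker was on at 100 CPM or more, and a cell took the class with most markers on, given at least 2 (B, T) or 3 (NK, myeloid). This scoring rule was set after the data were seen. Cells at the minimum, or with their best class at most 1 marker ahead of the next, numbered 5 B, 8 T, 5 NK and 0 myeloid cells in TAS-Seq, and 17, 7, 2 and 5 in BD WTA. For shares, cells were thinned without replacement to 20000 reads (seed 1), which left 397 and 334 B, 265 and 263 T, 19 and 21 NK and 19 and 19 myeloid cells. Scrublet (scanpy 1.11.5, expected rate 0.05) called 3 and 4 doublets, which were kept. Pooled CPM, ratios and intervals were computed with scipy 1.17.1 and tested on simulated data, and TMM factors for an alternative came from edgeR 4.0.16 on R 4.3.3.

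A ratio between libraries was taken over genes with at least 10 CPM in a library and reads in at least 10 cells. A gene counted as higher between classes when it was at least 4-fold higher in both libraries. Genes compared between classes had at least 10 CPM in either class and reads in at least 10 cells, in each library. A gene low in 1 class thus entered through the other. The named genes are the 6 members, the genes of 2 lists that reach 4-fold or 50 CPM in a class, and the 3 most similar genes per member, of which some, like 1 B-cell marker, are not reported here. Genes were also named where 1 neighbour, subset or adaptor was described after its values were seen. The members, lists and markers were chosen with earlier results of these data known. Annotation came from GENCODE mouse release M21 and promoter sequences from RefSeq, where all 6 symbols matched.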

Additional observations from a re-analysis of the deposited data

Results flagged for a closer look

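In 4 comparisons, each a log2 ratio of pooled CPM with 1 library a side, the counting intervals of the libraries lay on opposite sides of 0, and the differences between the libraries were not tested. For Fcer1g in myeloid over NK cells the ratio was -0.25 in TAS-Seq and 0.60 in BD WTA. For Fcer1g in marginal zone-like over other B cells it was -1.03 in TAS-Seq, on 11 and 37 reads. Of those 37 reads, 20 were in 1 cell with 2 marginal zone markers on, and the ratio without it was not computed. In BD WTA it was 3.81, where 69 of the 71 reads were in the 1 cell that also had 5 NK markers on. For Fcer1g in neutrophil-like over other myeloid cells it was -0.18 and 0.34. For Fcrl1 in the same cells it was -4.25 in TAS-Seq, on 1 and 38 reads, and 2.37 in BD WTA, on 6 and 3 reads. Comparisons with opposite signs but an interval that holds 0 are not listed.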

How the results depend on the processing

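No paired analysis was possible, because the libraries share 1 pool of cells, which gives a single pair, and 0 barcodes. With 1 library a method, no alternative bears on the spread between libraries, NK and myeloid values rest on 19 to 24 cells, and shares depend on depth and on amplification. Of 163 alternative values of the main comparisons, 98 stayed within a limit set for the main value and 64 moved past it. In 1 more the sign changed although the interval of the main value excluded 0. Subset ratios that changed sign with an interval holding 0 are counted under the 98 or 64. The limit was the interval of the main value, or a fixed fold change for counts and shares of genes, or a fixed change in r for likeness. Of 86 others, 56 stayed within it and 30 moved past it. With 10000 reads per cell the share of B cells with a read was 28.5% for Fcgr2b, 46.2% for Fcrl1 and 50.9% for Fcrla in TAS-Seq, and 27.3% for Fcgr2b and 31.1% for Fcrl1 in BD WTA. Without thinning it was 42.1% for Fcgr2b and 63.0% for Fcrla in TAS-Seq. With at least 5 reads it was 22.2, 72.5, 35.8 and 37.5% for Fcgr2b, Fcmr, Fcrl1 and Fcrla in TAS-Seq, and 21.3, 72.2, 21 and 51.2% in BD WTA. Leaving out cells with reads of 2 or more markers of another class kept 52 of 397 TAS-Seq and 237 of 334 BD WTA B cells and gave 48.1% for Fcrl1 and 40.4% for Fcrla in TAS-Seq and 54.0% for Fcrla in BD WTA. It kept 0 of 19 NK and 2 of 19 myeloid cells in TAS-Seq, for which no value is given, and 9 of 21 NK cells in BD WTA, where the share with Fcgr3 fell from 19% to 0. Clusters in place of marker calls gave 52.9% and 62.9% for Fcer1g in NK cells, where the cluster also held cells called T. Leaving out the cells of the lower class with 5 or more reads was an alternative chosen after seeing the data, and it can only raise a ratio. It gave 124-fold and 1164-fold for Fcrl1 in B over T cells (TAS-Seq, BD WTA). For Fcer1g it gave 1149-fold and 7637-fold in NK over B cells and 967-fold and 11572-fold in myeloid over B cells, and for Fcgr3 in BD WTA 290.0-fold and 974-fold. The cause of the other shifts was not tested.

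For the ratio of TAS-Seq over BD WTA, TMM factors gave -0.29 for Fcgr2b, -0.31 for Fcmr, 0.36 for Fcrl1 and -0.85 for Fcrla. Means over cells gave -0.076 for Fcgr2b and -0.22 for Fcmr, and all filtered cells gave -0.049, -0.13, -0.64 and -1.10 for Fcgr2b, Fcmr, Fcrla and Fcer1g. The share of all genes past 1 in B cells was 29.8% with a minimum of 1 CPM and 12.9% with 50 CPM. The subset alternatives were chosen after seeing the data. For marginal zone-like over other B cells, 2 markers gave -0.32 and -0.63 for Fcmr (TAS-Seq, BD WTA), and in BD WTA 0.10 for Fcrl1, which changed sign, and -0.18 for Fcrla. Requiring 4 markers gave -0.88 for Fcmr and -0.49 for Fcrla in TAS-Seq, and -0.021 for Fcrl1 and -0.55 for Fcrla in BD WTA. Means over cells gave 0.11 for Fcgr2b and -0.64 for Fcmr in TAS-Seq. Without the 5 highest cells of each subset the values were -0.89, -0.15 and -0.27 for Fcmr, Fcrl1 and Fcrla in TAS-Seq and -1.01, -0.78 and -0.46 in BD WTA. For neutrophil-like over other myeloid cells, Fcgr3 was 3.24 and 5.04 with 2 markers, 3.07 with 4 markers in BD WTA, 0.81 and 2.38 as means over cells, and 2.71 and 4.61 without the highest cell of each subset. Fcer1g was -0.49 and 0.047 as means over cells.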

Other observations

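Among the 11 BD WTA cells without a class, 1 cell had all 4 basophil markers on. It held 78 reads of Fcer1g (1403 CPM), 75 of Fcgr3 (1349 CPM), 102 of Ms4a2 (1835 CPM), which encodes the β chain of the high-affinity IgE receptor, and 55 of Fcer1a (989 CPM), its IgE-binding chain. It had 0 reads of Fcgr2b, Fcmr, Fcrl1 and Fcrla. Another cell without a class in that library had Fcgr2b at 1554 CPM. In TAS-Seq the 6 cells without a class reached at most 330 CPM of Fcer1g and 438 CPM of Fcgr3.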
